A study of Caenorhabditis elegans with 6 samples.

Results

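The genes described here are the cytochrome P450 genes (*cyp*) and the UDP-glycosyltransferase genes (*ugt*) of *C. elegans*, read in L1 larvae. The WBcel235 annotation names 141 such genes by *cyp-* or *ugt-* and a number, 74 *cyp* and 67 *ugt*, and the deposited table of 20351 genes holds 139 of them. Those with at least 10 counts summed over the 6 libraries were taken as members, which gave 91 genes, 42 *cyp* and 49 *ugt*. Of the other 48 genes, 31 were *cyp* and 17 were *ugt*, and 8 of the *cyp* genes had no count in any library. Adult wild-type (N2) mothers were kept on bacteria expressing *elt-2* RNAi or carrying the empty vector for 24 hours from day 1 of adulthood and were then bleached. Their embryos hatched overnight in S-Basal, a buffer without food, so the larvae of both groups were unfed and had met the RNAi through their mothers. Poly-A RNA of whole larvae was read by 3SEQ, a method that reads transcripts near their 3' ends and is little affected by gene length. There were 3 *elt-2* RNAi and 3 Control libraries, biological replicates lettered A, B and C in each group, and values follow the order A, B and C.

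Cytochrome P450s are heme enzymes that insert oxygen into fatty acids, sterols and foreign compounds, with electrons supplied by a reductase (EMB-8 in the worm). UDP-glycosyltransferases then couple a sugar, in the worm usually glucose, to the hydroxyl or other groups on such compounds, which makes them easier to excrete. The intestine is a main site of this chemistry in *C. elegans*, and ELT-2 is the GATA transcription factor that governs the differentiated intestine.

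Library totals ranged from 13700707 to 22124319 counts, and the 100 most abundant genes took 79.5% to 84.7% of each. Levels are in CPM, counts per 1e6 of the library total after adjustment by edgeR's TMM factors, and 3 counts corresponded to between 0.135 and 0.244 CPM. *elt-2* itself had 21, 34 and 44 counts in the *elt-2* RNAi libraries and 32, 40 and 21 counts in the Control libraries. Its level was 1.55 ± 0.506 CPM in *elt-2* RNAi and 2.18 ± 0.975 CPM in Control (SD, n = 3 each). The log2 fold change, given ± SE here and for other genes, was -0.48 ± 0.46, with an adjusted p of 0.660 (edgeR's quasi-likelihood test), so a fall in the RNA of the target was not detectable in these counts, and the groups are named by their labels. The study reports that *elt-2* RNA was reduced in such L1 larvae by qRT-PCR, and that larvae arrested. Neither measurement is analysed here. Among 8 intestinal markers, *cpr-1* (log2 fold change -6.02, adjusted p = 0.0283) and *spp-1* (-5.83, adjusted p = 0.00842) were called lower, beside 2.61% of all genes tested. Of the 8, 6 had a log2 fold change below 0, beside 46.3% of all genes tested.

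Both families were expressed at low levels. The median level over the 6 libraries was 0.588 CPM for the 42 *cyp* members, with a range of 0.0793 to 7.37 CPM, and 0.842 CPM for the 49 *ugt* members, with a range of 0.0880 to 220 CPM. Of the *cyp* members, 28 were at or below 1 CPM, 12 lay between 1 and 5 CPM and 2 were above 5 CPM. The *ugt* members divided in much the same way, with 30 at or below 1 CPM, 17 between 1 and 5 CPM and 2 above 5 CPM. Only *ugt-50* stood far from the rest of its family, the next level being 9.99 CPM for *ugt-46*.

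The highest *cyp* levels were those of *cyp-23A1*, *cyp-37A1* and *cyp-13B1*. *cyp-23A1* had 191, 153 and 203 counts in *elt-2* RNAi and 147, 40 and 94 counts in Control, or 8.66 ± 1.54 CPM and 6.08 ± 2.84 CPM. *cyp-13B1*, of a group related to the drug-metabolizing CYP3 enzymes of mammals, had 104, 65 and 86 counts in *elt-2* RNAi and 118, 40 and 68 counts in Control. Both had overlapping groups, with log2 fold changes of 0.50 ± 0.42 (adjusted p = 0.617) and -0.29. *cyp-29A2* reached 3.34 ± 1.48 CPM in *elt-2* RNAi and 2.04 ± 0.684 CPM in Control, and *cyp-14A5* reached 2.71 ± 1.43 CPM and 2.34 ± 0.698 CPM. The levels of *cyp-29A2* and *cyp-14A5* overlapped each other in both groups, and no test was made between genes.

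In the *ugt* family, *ugt-46* had 149, 130 and 163 counts in *elt-2* RNAi and 158, 169 and 243 counts in Control. Its groups did not overlap with TMM scaling, at 7.46, 5.84 and 7.65 CPM in *elt-2* RNAi against 9.61, 13.8 and 15.6 CPM in Control, but they did with library size as the scaling, and the log2 fold change of -0.90 ± 0.37 was not called (adjusted p = 0.303). *ugt-48* (2.94 ± 0.807 CPM in *elt-2* RNAi and 3.45 ± 0.438 CPM in Control) and *ugt-49* (2.43 ± 1.02 CPM and 2.88 ± 0.313 CPM) had overlapping groups. *ugt-23* had 62, 128 and 29 counts in *elt-2* RNAi and 35, 25 and 32 counts in Control. With TMM scaling its *elt-2* RNAi libraries spread widely (3.41 ± 2.21 CPM) and its Control libraries hardly at all (2.07 ± 0.0487 CPM). With library size as the scaling the Control values were 2.55, 1.25 and 1.82 per 1e6 counts, so their evenness depended on the scaling.

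*ugt-50* (T07C5.1), on chromosome X from 12691573 to 12695652 of WBcel235, differed between libraries far more than between groups. It had 406, 8435 and 244 counts in *elt-2* RNAi and 387, 8311 and 3262 counts in Control. After scaling these were 20.3, 379 and 11.4 CPM in *elt-2* RNAi and 23.5, 676 and 210 CPM in Control. Both libraries with the letter B were high, Control C was intermediate, and the other 3 were low. The log2 fold change of -1.15 ± 1.29 had an adjusted p of 0.715, and without Control B it was 0.21. *ugt-50* supplied 26.5%, 88.7% and 18.2% of all *ugt* counts in *elt-2* RNAi and 29.6%, 91.8% and 76.2% in Control, so sums over the family are given without it. The gene carries *mir-62* in an intron and overlaps *nhr-26*, on the opposite strand, by 424 exonic bases. *nhr-26* had only 6, 16 and 15 counts in *elt-2* RNAi and 5, 6 and 5 counts in Control.

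**Figure D1:**
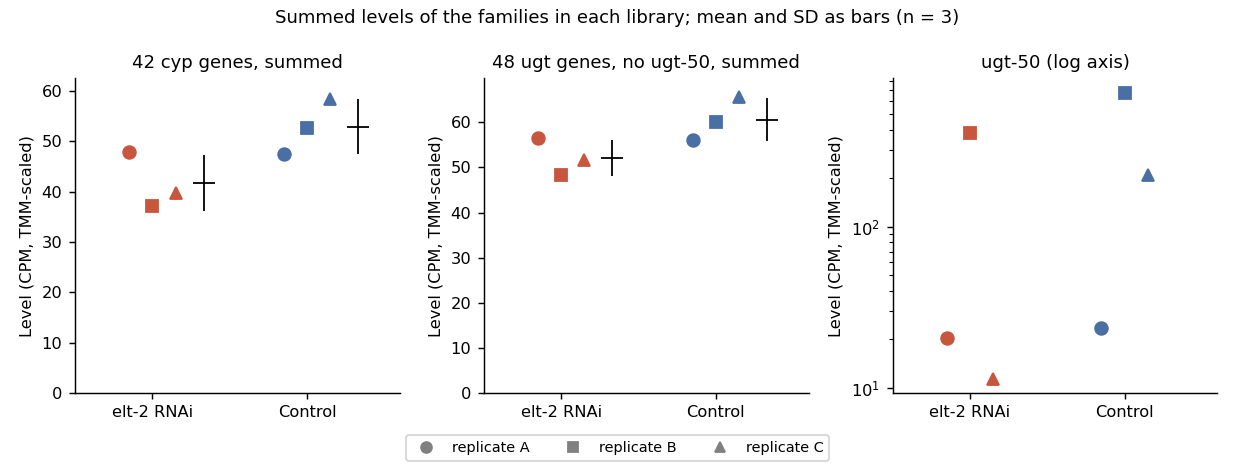
Summed CPM of the 42 *cyp* members, of the 48 *ugt* members other than *ugt-50*, and CPM of *ugt-50* on a log axis, with *elt-2* RNAi left of Control, symbols for replicates A, B and C and, for the sums, lines for the mean and SD (n = 3). The *cyp* sums lay between 37.2 and 47.9 CPM in *elt-2* RNAi and between 47.5 and 58.4 CPM in Control, and the *ugt* sums between 48.4 and 56.5 CPM in *elt-2* RNAi and between 56.1 and 65.6 CPM in Control, with a small overlap in each family.

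Summed over members, the *cyp* family had 47.9, 37.2 and 39.8 CPM in *elt-2* RNAi and 47.5, 52.7 and 58.4 CPM in Control. The *ugt* family without *ugt-50* had 56.5, 48.4 and 51.5 CPM in *elt-2* RNAi and 56.1, 60.1 and 65.6 CPM in Control. In both families *elt-2* RNAi A exceeded Control A by a small margin, and the other *elt-2* RNAi libraries lay below all 3 Control libraries. These directions depended on the scaling. Per 1e6 counts of the whole library, without TMM factors, the *cyp* sum was 49.1 ± 15.2 in *elt-2* RNAi and 47.0 ± 12.9 in Control, and the *ugt* sum was 61.0 ± 15.3 and 54.1 ± 15.5.

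Differential expression was tested on the 10063 genes that edgeR's expression filter kept, with calls at an adjusted p under 0.1. The filter kept 54 members, 22 *cyp* and 32 *ugt*, and the 37 members it left out (20 *cyp* and 17 *ugt*) are described by their counts further on. Only 3 members were called, all lower in *elt-2* RNAi: *ugt-22*, *ugt-17* and *cyp-37B1*. This was 4.55% of the *cyp* and 6.25% of the *ugt* genes tested, where 2.61% of all genes tested were called lower and 2.81% in either direction. With so few genes, these shares were close to the background. Leaving out single libraries moved them: no *cyp* gene was called without Control B, Control C or any 1 of the *elt-2* RNAi libraries, and 2 were without Control A, while *ugt-22* alone of the *ugt* genes was called without *elt-2* RNAi A, B or C and *ugt-54* alone without Control C. No member was called higher by edgeR's quasi-likelihood test, against 0.199% of all genes, and DESeq2's Wald test called 1 member higher, *ugt-21*, and 0.894% of all genes. In the higher direction, 5 of 32 *ugt* and 0 of 22 *cyp* genes reached an unadjusted p under 0.05, beside 4.33% of all genes. In the lower direction, 6 of 22 *cyp* and 6 of 32 *ugt* genes did, beside 10.2%.

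The median log2 fold change was -0.24 over the 22 *cyp* genes and 0.01 over the 32 *ugt* genes, beside 0.06 over all genes tested. Of the *cyp* genes, 12 lay below 0 and 10 above, with values between -2.79 and 0.98, and of the *ugt* genes, 16 lay on each side, with values between -2.94 and 1.87. With library size alone as the scaling, the median over all genes was 0.42 and the family medians were 0.15 (*cyp*) and 0.44 (*ugt*), so the sign of a small log2 fold change depended on the scaling. The 2 groups of libraries did not overlap for 20 of the 54 genes, 37.04%, where this held for 17.9% of all genes tested. In the *cyp* family all 6 such genes were lower in *elt-2* RNAi, and in the *ugt* family 8 were lower and 6 higher, where 10.9% of all genes were apart and lower and 7.08% apart and higher. With library size as the scaling, 12 of the 54 genes did not overlap (22.2%, beside 15.7% of all genes). These were 2 *cyp* genes, both lower (9.09% of the family), and 10 *ugt* genes, 3 lower and 7 higher (31.2%). The larger share of *cyp* genes was lost, and the balance of *ugt* genes turned, as it did over all genes. Of the 10063 genes tested, 1092 were apart and lower and 712 apart and higher with TMM. With library size as the scaling these were 629 and 946.

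**Figure D2:**
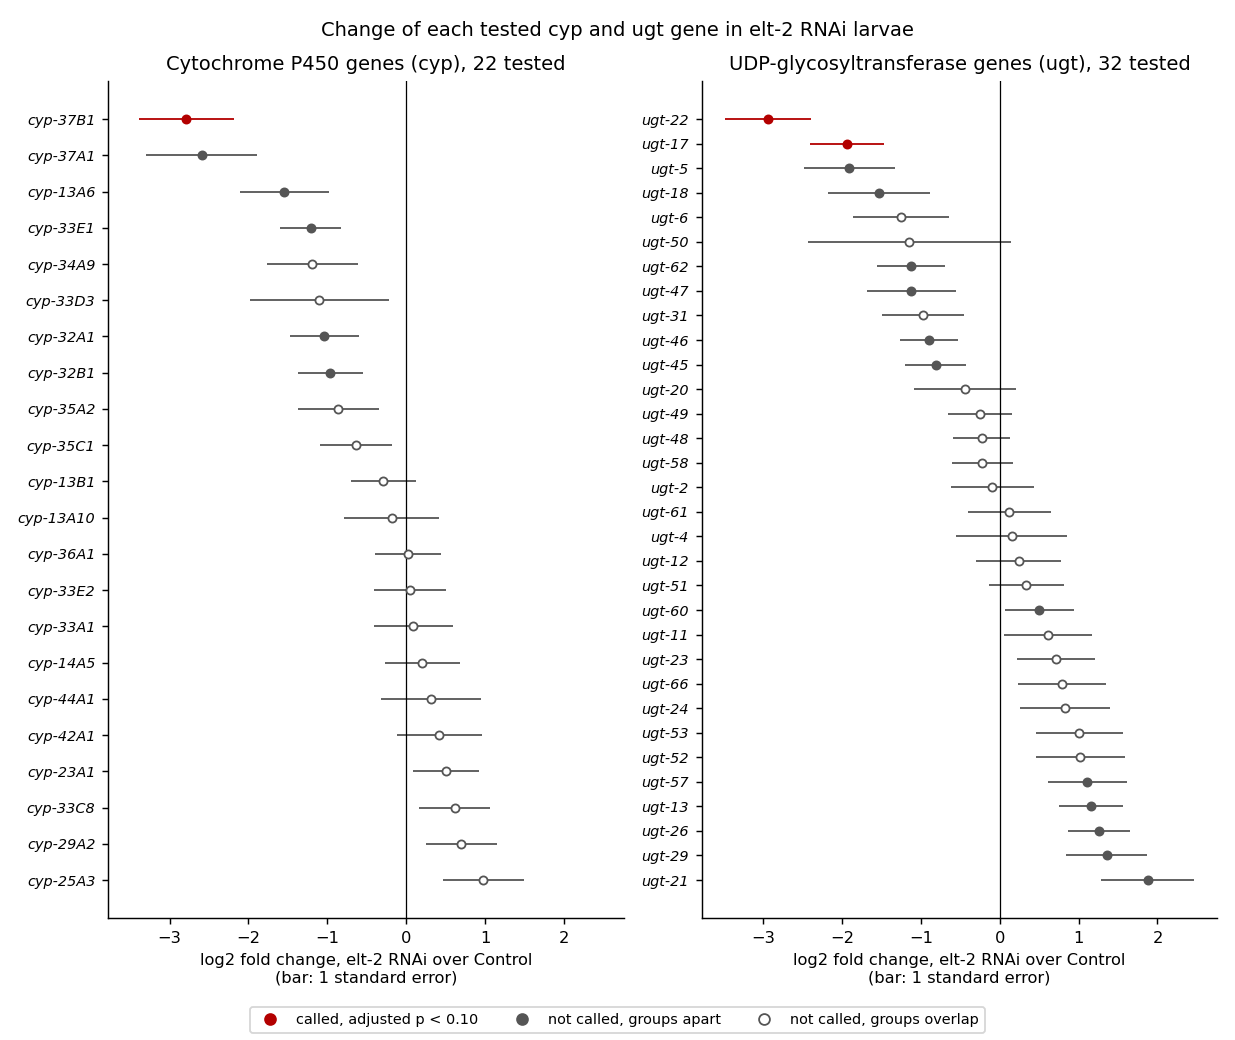
Log2 fold change (*elt-2* RNAi over Control) of the 22 *cyp* and 32 *ugt* genes tested, in order of size, with bars for 1 SE, red points for genes called by edgeR, grey filled points for uncalled genes whose groups did not overlap and open points for the rest. The 3 called genes, *ugt-22* at -2.94, *cyp-37B1* at -2.79 and *ugt-17* at -1.94, stand at the low end, and *ugt-21* at 1.87 stands highest.

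*ugt-22* (C08F11.8), on chromosome IV from 13639260 to 13644567, had 8, 13 and 3 counts in *elt-2* RNAi and 31, 39 and 58 counts in Control. In CPM these were 0.401, 0.584 and 0.141 in *elt-2* RNAi and 1.89, 3.17 and 3.73 in Control. Every *elt-2* RNAi library was below every Control library, and the lowest Control value was more than 3 times the highest *elt-2* RNAi value. The gene fell, with a log2 fold change of -2.94 ± 0.55 and an adjusted p of 0.0274. The call held under 12 of 13 alternative settings, with adjusted p between 3.38e-05 and 0.114, and was lost without Control C (-2.73, adjusted p = 0.114).

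*ugt-17* (C08B6.1) spans 10102592 to 10104964 of chromosome V. It had 17, 13 and 19 counts in *elt-2* RNAi and 38, 24 and 73 counts in Control. Its level was 0.776 ± 0.167 CPM in *elt-2* RNAi and 2.99 ± 1.49 CPM in Control, with Control C at 4.70 CPM well above Control A at 2.31 CPM and Control B at 1.95 CPM. The groups did not overlap, and the gene fell with a log2 fold change of -1.94 ± 0.47 (adjusted p = 0.0772). The call was lost with library size as the scaling (adjusted p = 0.269), without Control C (0.308), and without *elt-2* RNAi A (0.169), B (0.247) or C (0.128), and the adjusted p ranged from 0.00985 to 0.308 over 13 alternatives.

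*cyp-37B1* (F28G4.1), a P450 related to the CYP4 fatty acid hydroxylases of mammals, lies on chromosome V from 16278116 to 16280616. It had 1, 5 and 3 counts in *elt-2* RNAi and 13, 16 and 15 counts in Control, or 0.139 ± 0.0874 CPM and 1.02 ± 0.260 CPM. The *elt-2* RNAi values were at or near the level that 3 counts give, and none came close to a Control value. The gene fell with a log2 fold change of -2.79 ± 0.60 (adjusted p = 0.0559). On so few counts the call was lost with library size as the scaling (adjusted p = 0.102), without Control B (0.210) or C (0.177), and without *elt-2* RNAi A (0.179), B (0.127) or C (0.127), and the adjusted p ranged from 0.00671 to 0.210 over 12 alternatives.

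Reads of *ugt-22* and *cyp-37B1* could in principle include reads of genes that overlap them on the opposite strand, since the counting was not stated to use strand. How reads in the shared bases were assigned was not tested. *srz-29*, which overlaps *ugt-22*, had 0 counts in all *elt-2* RNAi libraries and 0, 0 and 2 in Control, and F28G4.2, which overlaps *cyp-37B1*, had 2, 0 and 0 counts in *elt-2* RNAi and 0 in all Control libraries.

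Of the 8 intestinal markers, *cpr-1* and *spp-1* were lower, as were the 3 called genes, and the other 6 were not called, with *elt-7* at 0.74 and *ges-1* at 0.15. The summed level of the 8, most of it from the uncalled *asp-1* and *act-5*, was 72.7 to 369 CPM in *elt-2* RNAi and 479 to 1361 CPM in Control, with a median log2 fold change of -1.16. The summed levels overlapped between groups for epidermis (406 to 2830 CPM in *elt-2* RNAi and 278 to 777 CPM in Control), body muscle (177 to 432 CPM and 273 to 745 CPM), pharynx (108 to 338 CPM and 210 to 746 CPM), neurons (61.9 to 85.6 CPM and 79.9 to 106 CPM) and germline (17.2 to 28.6 CPM and 19.0 to 28.98 CPM). edgeR called none of the tested markers of these other tissues (5 epidermal, 4 muscle, 4 pharyngeal, 5 neuronal and 2 germline), and DESeq2's Wald test called none either. At an unadjusted p under 0.05, 1 muscle marker was higher and 2 neuronal markers were lower, beside 4.33% and 10.2% of all genes. For these other tissues the median log2 fold change was 0.23 (epidermis), -0.79 (body muscle), -0.41 (pharynx), 0.01 (neurons) and 0.00126 (germline). No marker was at 0 in every library. In RNA of whole larvae, fewer cells of a type and less RNA per cell cannot be told apart, and the part of tissue makeup in the falls of *ugt-22*, *ugt-17* and *cyp-37B1* was not tested.

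**Figure D3:**
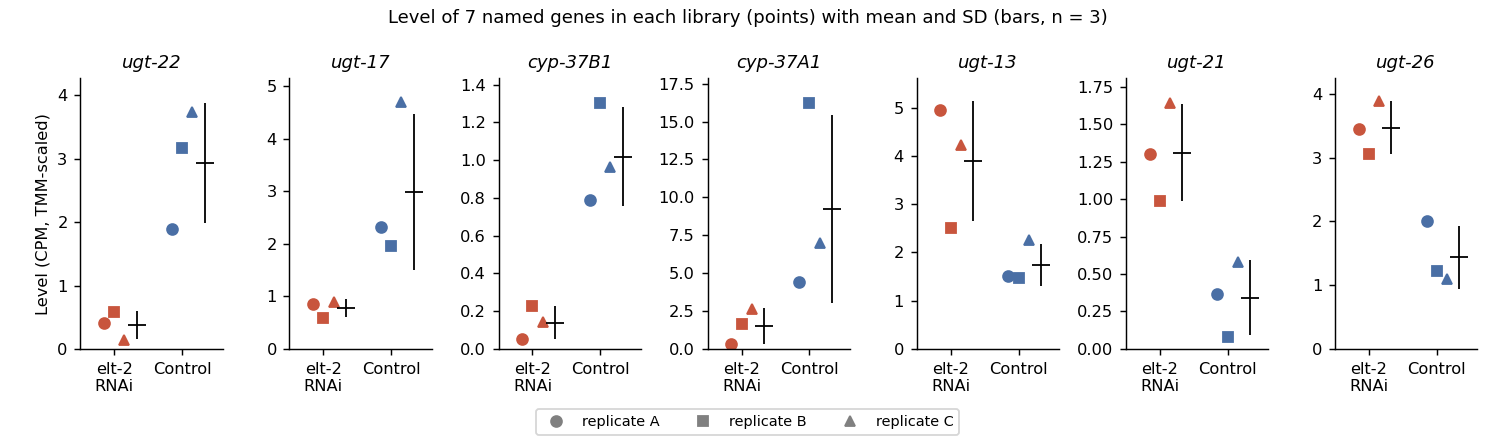
CPM in each library of *ugt-22*, *ugt-17*, *cyp-37B1*, *cyp-37A1*, *ugt-13*, *ugt-21* and *ugt-26* on linear axes from 0, with *elt-2* RNAi left of Control, symbols for replicates and lines for the mean and SD (n = 3). The first 3 were called lower, and the others were picked from uncalled genes with a small unadjusted p. Of those genes, *cyp-33E1*, *cyp-13A6*, *cyp-32A1* and *ugt-5*, all lower in *elt-2* RNAi with TMM scaling, are not shown. In none of the 7 genes, so picked, do the groups overlap.

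Beyond the called genes, the 4 members of each family with the smallest unadjusted p were examined. In the *cyp* family these had lower values in *elt-2* RNAi. *cyp-37A1* (F01D5.9), on chromosome II from 14013819 to 14016965, had 6, 36 and 56 counts in *elt-2* RNAi and 73, 199 and 109 counts in Control. That is 0.301, 1.62 and 2.63 CPM in *elt-2* RNAi and 4.44, 16.2 and 7.01 CPM in Control. The groups were well apart but each varied several-fold, and the log2 fold change of -2.59 ± 0.70 had an adjusted p of 0.114. It was called under 5 of 13 alternatives, with library size as the scaling (adjusted p = 0.0870), by DESeq2's Wald test (0.00629), with no filter (3.08e-05), with a replicate block (0.0113) and without Control A (0.0734), and its adjusted p reached 0.320 in the others. F01D5.8, which overlaps it on the opposite strand, had 3, 17 and 8 counts in *elt-2* RNAi and 10, 22 and 15 counts in Control. Reads in the bases shared by these neighbours cannot be told apart without strand, and how they were assigned was not tested.

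*cyp-33E1* had 36, 27 and 33 counts in *elt-2* RNAi and 43, 46 and 66 counts in Control, a log2 fold change of -1.21 ± 0.38 (adjusted p = 0.175). *cyp-13A6* had 9, 10 and 4 counts in *elt-2* RNAi and 13, 9 and 26 counts in Control, a log2 fold change of -1.55 ± 0.56 (adjusted p = 0.242). *cyp-32A1* had 17, 25 and 16 counts in *elt-2* RNAi and 22, 21 and 40 counts in Control, a log2 fold change of -1.04 ± 0.44 (adjusted p = 0.308). With TMM scaling the groups of each of these 3 genes did not overlap, with library size as the scaling they did, and none passed the test over all genes.

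In the *ugt* family, 3 of the 4 genes with the smallest unadjusted p were higher in *elt-2* RNAi. *ugt-26* had 69, 68 and 83 counts in *elt-2* RNAi and 33, 15 and 17 counts in Control. *ugt-21* had 26, 22 and 35 counts in *elt-2* RNAi and 6, 1 and 9 counts in Control. *ugt-13* had 99, 56 and 90 counts in *elt-2* RNAi and 25, 18 and 35 counts in Control. Each of the 3 was higher in every *elt-2* RNAi library than in any Control library, before and after scaling. The log2 fold changes were 1.26 ± 0.39 for *ugt-26* (adjusted p = 0.172), 1.87 ± 0.59 for *ugt-21* (0.174) and 1.15 ± 0.41 for *ugt-13* (0.226). *ugt-26* was called without Control A (adjusted p = 0.0984), and *ugt-21* by DESeq2's Wald test (0.0801), with no filter (0.0533) and with a replicate block (0.0960). Over 13 alternatives the adjusted p reached 0.475 for *ugt-26* and 0.405 for *ugt-21*. The fourth gene, *ugt-5*, had 12, 17 and 3 counts in *elt-2* RNAi and 32, 16 and 38 counts in Control, a log2 fold change of -1.91 ± 0.58 (adjusted p = 0.160), and it was called under 2 of 13 alternatives (adjusted p between 0.0263 and 0.429). Its groups did not overlap with TMM scaling but did with library size as the scaling.

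P450 genes were next grouped by the clan to which their number assigns them. The CYP4-like genes (*cyp-29*, *-31*, *-32*, *-37* and *-42*) held the only called P450. Summed over 9 members they had 7.71, 8.81 and 8.30 CPM in *elt-2* RNAi and 12.3, 22.9 and 15.2 CPM in Control, so the groups did not overlap. Without *cyp-37A1* the other 8 had 7.41, 7.19 and 5.68 CPM in *elt-2* RNAi and 7.85, 6.67 and 8.17 CPM in Control, which overlapped. Of 6 tested, 4 had groups that did not overlap and were lower in *elt-2* RNAi (*cyp-32A1*, *cyp-32B1*, *cyp-37A1* and *cyp-37B1*), where 10.9% of all genes did so. With library size as the scaling only *cyp-37A1* and *cyp-37B1* did, where 629 of all 10063 genes tested did so. Of the 6, 2 had log2 fold changes above 0 (*cyp-29A2* and *cyp-42A1*), giving a median of -0.999. The CYP2-like genes (*cyp-14*, *-33*, *-34* and *-35*) were the most numerous, with 20 members and 9 tested, of which 5 lay below 0, 0 were called and the median was -0.64. The CYP3-like genes (*cyp-13*, *-25* and *-43*) had 10 members and 4 tested, 3 of them below 0, with a median of -0.24 and *cyp-25A3* highest at 0.98. The mitochondrial P450 *cyp-44A1* was at 0.32, and *cyp-36A1*, known to act downstream of the hypoxia factor HIF-1, was at 0.02. With library size as the scaling the medians were -0.61 (CYP4-like), -0.17 (CYP2-like) and 0.15 (CYP3-like), beside 0.42 for all genes.

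Many members lie in tandem arrays, where neighbouring genes of a family are separated by under 10000 bases. Chromosome V alone carried 23 of the 42 *cyp* and 27 of the 49 *ugt* members, and 5 arrays of at least 3 genes were found in each family. The arrays did not share 1 direction. On chromosome V from 4887165 to 4911399, the array from *ugt-12* to *ugt-13* had 147, 77 and 138 summed counts in *elt-2* RNAi and 45, 39 and 59 in Control. On chromosome I from 4721131 to 4735276, the array with *ugt-25* to *ugt-28* had 99, 78 and 93 summed counts in *elt-2* RNAi and 50, 18 and 22 in Control. Once scaled, the sums of the *ugt-12* to *ugt-13* array overlapped (7.36, 3.46 and 6.47 CPM in *elt-2* RNAi and 2.74, 3.17 and 3.80 CPM in Control), while those of the *ugt-25* to *ugt-28* array were higher in every *elt-2* RNAi library (4.96, 3.51 and 4.36 CPM against 3.04, 1.47 and 1.42 CPM). *ugt-13* and *ugt-26* supplied most of these counts in *elt-2* RNAi. In the array of *ugt-18*, *ugt-16* and *ugt-15*, on chromosome V from 12820260 to 12830114, the sums ran the other way, with 16, 7 and 25 counts in *elt-2* RNAi and 39, 36 and 54 in Control.

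Among the *cyp* arrays, 5 *cyp-33C* genes on chromosome V from 2236140 to 2252591 had 11, 11 and 11 summed counts in *elt-2* RNAi and 14, 19 and 36 in Control. The array of 8 *cyp-13A* genes on chromosome II from 9779181 to 9807569 had 28, 18 and 17 counts in *elt-2* RNAi and 23, 24 and 43 in Control, and the *cyp-34A* and *cyp-35* array of 10 genes on chromosome V from 3936326 to 3972991 had 34, 19 and 12 and 17, 26 and 51. Of these 3 arrays, only the counts of *cyp-33C* did not overlap between groups. The array of 3 *cyp-25A* genes on chromosome III from 3832591 to 3839735 had 39, 104 and 33 counts in *elt-2* RNAi and 18, 22 and 30 in Control, but 1.95, 4.68 and 1.55 CPM and 1.09, 1.79 and 1.93 CPM, which overlapped. The *cyp-14A* array on chromosome X from 13265041 to 13284197 was almost silent, with 0, 0 and 1 counts in *elt-2* RNAi and 0, 1 and 2 in Control.

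The 37 members under the expression filter had few counts but were fitted together with all 13173 genes of at least 10 summed counts, of which 2.5% were called, 2.31% lower and 0.19% higher. Here 4 members were called lower, the same 3 genes and *ugt-54*, and 0 were called higher. *ugt-54* had 3, 3 and 4 counts in *elt-2* RNAi and 25, 13 and 7 counts in Control, and it fell with a log2 fold change of -2.61 ± 0.66 (adjusted p = 0.0883). *ugt-15* (3, 4 and 1 counts in *elt-2* RNAi and 9, 7 and 16 in Control) and *ugt-16* (4, 1 and 4 against 6, 14 and 13) were not called in this fit, though both were with no filter and *ugt-16* also without Control A. Within *cyp-35A*, a group whose members are inducible by foreign compounds, no gene was called in this fit, though *cyp-35A3* was called lower with no filter. *cyp-35A3* had 2, 0 and 0 counts in *elt-2* RNAi and 3, 8 and 7 in Control. *cyp-35A5* had 10, 10 and 1 in *elt-2* RNAi and 1, 2 and 0 in Control, and *cyp-35A2* had 11, 9 and 7 in *elt-2* RNAi and 13, 13 and 8 in Control. The near-identical pair *cyp-31A2* and *cyp-31A3*, required for the lipid layer of the eggshell, together had 6, 13 and 7 counts in *elt-2* RNAi and 2, 0 and 7 counts in Control, and reads may be split between them. In this wider fit the medians were -0.47 for *cyp* and -0.21 for *ugt*, beside 0.05 for all genes.

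**Figure D4:**
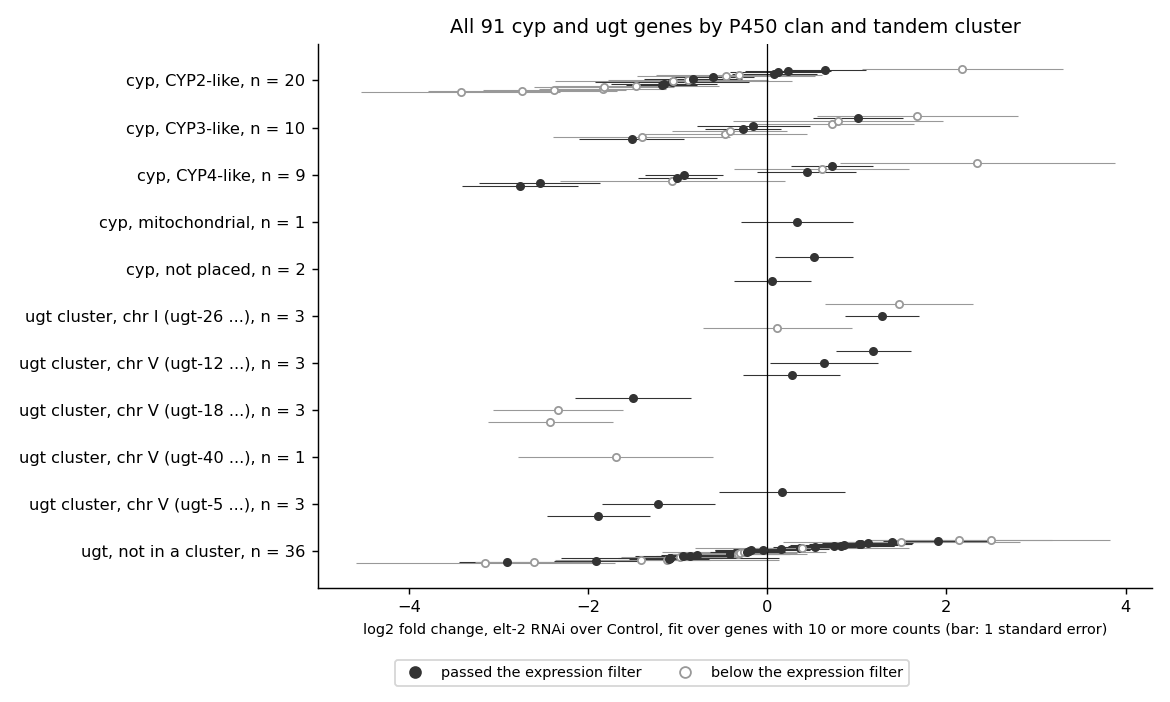
Log2 fold change (*elt-2* RNAi over Control, horizontal axis, bars of 1 SE) of all 91 members in the fit over genes with at least 10 summed counts, by P450 clan and by *ugt* tandem cluster, with filled points for members that passed the expression filter and open points for those below it. In this fit the CYP4-like genes spread from -2.76 to 2.34 and the CYP2-like genes from -3.42 to 2.18, and the widest bars belong to open points.

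The other genes of the pathway were examined in the same fit of 10063 genes. EMB-8, the reductase that feeds electrons to P450s, had 156, 189 and 187 counts in *elt-2* RNAi and 131, 151 and 197 in Control, a log2 fold change of -0.39 ± 0.36 (adjusted p = 0.652). None of the 5 genes for P450 partners and UDP-sugar supply was called by edgeR or DESeq2, and none reached an unadjusted p under 0.05. The same held for the 13 tested of 14 regulators of detoxification genes. The nuclear receptor gene *nhr-8*, needed for resistance to foreign compounds, had 48.6, 19.9 and 31.9 CPM in *elt-2* RNAi and 28.3, 26.1 and 29.1 CPM in Control, with overlapping groups (0.26 ± 0.44, adjusted p = 0.810). *daf-9*, the P450 that makes dafachronic acid hormones, had 0, 1 and 1 counts in *elt-2* RNAi and 2, 2 and 2 in Control, too few to test.

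Of 22 genes for exporters of the ABC family, 16 were tested and 1 fell, *mrp-3*, with 8, 16 and 16 counts in *elt-2* RNAi and 28, 32 and 31 counts in Control (-1.73 ± 0.44, adjusted p = 0.0988). Of all genes tested, 2.61% were called lower. At an unadjusted p under 0.05, 6 of the 16 tested exporter genes were lower and 0 higher, beside 10.2% and 4.33% of all genes. DESeq2's Wald test called 3 of the 16 lower and 0 higher, beside 5.15% and 0.894% of all genes. The call of *mrp-3* was lost with library size as the scaling (adjusted p = 0.340). It was also lost with a mean count of at least 10 (0.105) and with at least 10 summed counts (0.106). Without Control B the adjusted p of *mrp-3* was 0.294, without Control C 0.250, and without *elt-2* RNAi A, B or C 0.267, 0.227 and 0.128. Over 13 alternatives it ranged from 0.0350 to 0.340.

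Of 30 genes for short-chain dehydrogenases, another class of oxidoreductases, 29 were tested, 1 rose and 1 fell. Of all genes tested, 0.199% were called higher and 2.61% lower. At an unadjusted p under 0.05, 4 of the 29 were lower and 1 higher, beside 10.2% and 4.33% of all genes. DESeq2's Wald test called 1 lower and 1 higher, beside 5.15% and 0.894% of all genes. *dhs-8* had 108, 226 and 112 counts in *elt-2* RNAi and 37, 15 and 35 counts in Control. It rose with a log2 fold change of 1.85 ± 0.43 (adjusted p = 0.0693), and the adjusted p was 0.206 without Control B, 0.211 without Control C, 0.102 without *elt-2* RNAi A and 0.227 without *elt-2* RNAi B, the highest of 13 alternatives, the lowest being 0.00426. *dhs-14* had 1, 1 and 6 counts in *elt-2* RNAi and 9, 16 and 25 counts in Control. It fell with a log2 fold change of -3.12 ± 0.74 (adjusted p = 0.0758), the log2 fold change being -4.39 without *elt-2* RNAi C and -2.71 without *elt-2* RNAi B. The adjusted p was 0.218 without Control B, 0.287 without Control C, 0.192 without *elt-2* RNAi A and 0.251 without *elt-2* RNAi B, with a range of 0.00187 to 0.287 over 12 alternatives. The median over the list was -0.18, against -0.31 for the exporters and 0.06 for all genes.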

How the data were processed

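Counts of reads per gene for 20351 genes were deposited by the authors without normalization. The submitters' processing notes name Bowtie 0.12.7, and the counting tool, genome build and annotation are not given in the sources used here. The study's methods scaled to uniquely mapped reads and used a rank product test at a false discovery rate of 10%. Here the counts were tested with edgeR 4.0.16 in R 4.3.3 (TMM, filterByExpr, quasi-likelihood test, Benjamini-Hochberg adjustment over all 10063 genes kept, called at an adjusted p under 0.1), and each standard error is the size of the log2 fold change over the square root of F. With 3 libraries against 3, the smallest exact two-sided p is 0.1, so no permutation test is given.

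Names, positions and exon overlaps came from Ensembl release 115 (WBcel235), which matched 19869 of the 20351 genes, and clans were assigned by gene number. No sequences were used here. Members, lists and tests were chosen with earlier results of these data known. Named genes are every called member, the 6 highest and the 4 with the smallest unadjusted p not called in each family, *ugt-50*, called pathway genes, *emb-8*, *nhr-8* and *daf-9*. Other genes were chosen after their values were seen. Alternatives were library size, DESeq2 1.42.0 size factors and its Wald test, other filters, the replicate letter as a block, an adjusted p under 0.05 and leaving out each library. The scripts were tested on simulated data. Counts of near-identical genes may be split between them.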

Additional observations from a re-analysis of the deposited data

How the results depend on the processing

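The number of *cyp* genes called lower, 1, was 2 with DESeq2's Wald test (which called 3 *ugt* genes lower), 3 with no filter beyond 1 count, 0 with a mean count of at least 10, 0 at an adjusted p under 0.05, and 0 to 2 when each library was left out; with library size it was 1, but the gene was *cyp-37A1*. The number of *ugt* genes called lower, 2, was 1 with library size, 6 with no filter, 1 at an adjusted p under 0.05 and 1 to 3 without single libraries. The filter of 10 summed counts, chosen after seeing the data, called 3. The number of *ugt* genes called higher, 0, was 1 with DESeq2's Wald test, 1 with no filter and 0 to 1 without single libraries. With the replicate block 2 *cyp* genes were called lower and 1 *ugt* gene higher. Calls over all genes moved too, with 263 lower here, 518 with DESeq2's Wald test, 790 of 17388 with no filter, 444 with the block, 149 with library size and 77 to 520 without single libraries. The letters were not taken as pairs, since same-letter deviations correlated at 0.32 (A), 0.39 (B) and only 0.03 (C), and 0.31 between *elt-2* RNAi A and Control C. The *cyp* median was 0.15 with library size, -0.45 with no filter, -0.47 with 10 summed counts and -0.50 to -0.0375 without single libraries, and the *ugt* median was 0.44, -0.19, -0.21 and -0.47 to -0.0373, and -0.23 with a mean count of at least 10. Library size turned the log2 fold change of *emb-8* to 0.0315, of *ugt-48* to 0.14 and of *ugt-49* to 0.17. Without single libraries it ran from -0.50 to 0.0894 for *cyp-13B1*, -0.23 to 0.54 for *cyp-14A5*, -0.0944 to 0.54 for *nhr-8*, -0.58 to 0.0390 for *ugt-49* and -4.25 to 0.21 for *ugt-50*. Of 348 values for 25 named genes, 296 kept direction and call, 33 lost a call, 11 gained one and 8 changed sign. Most of these genes had no call to lose, and all 33 losses fell on the called genes. At an adjusted p under 0.10, calls held under 12 of 13 alternatives for *ugt-22*, 8 of 13 for *ugt-17* and 6 of 12 for *cyp-37B1*. They held under 5 of 13 for *mrp-3*, 9 of 13 for *dhs-8* and 8 of 12 for *dhs-14*.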

Other observations

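*ugt-50* was high in *elt-2* RNAi B, Control B and Control C and low in the other 3 libraries, a pattern noticed after its values were seen. Among the 10063 genes tested, 574 had their 3 highest levels in those libraries, 100 of them at least 2-fold and 24 at least 5-fold above the others, where the ratio for *ugt-50* was 8.92. Of the 54 members tested, 3 shared the order, a share like that of all genes, and *ugt-50* alone reached 2-fold. Over the 6 libraries on the log2(CPM + 0.2) scale, the genes most like it among those with an SD above 1 were Y67D8A.1 (Pearson's r 0.997), *usp-3* (0.991), *sgcb-1* (0.989), the proteasome subunit gene *pas-6* (0.987) and *fib-1* (0.986), which encodes the nucleolar protein fibrillarin. *fib-1* had 40.9, 377 and 41.7 CPM in *elt-2* RNAi and 51.5, 982 and 285 CPM in Control. *pas-6* had 25.5, 138 and 22.8 CPM in *elt-2* RNAi and 26.5, 238 and 80.9 CPM in Control. These correlations describe 6 libraries that differ in depth, and no test was made of them.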
